A study of Mus musculus with 15 samples.

Results

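Genes of the synaptic vesicle and of the SNARE machinery were followed through olfactory bulbs with lowered, ordinary and raised signalling by the receptor CRHR1. They were chosen by name from the array design: synaptotagmins (Syt), syntaxins (Stx) and their binding proteins (Stxbp), vesicle SNAREs (Vamp), the SNAP family (Snap23, Snap25, Snap29, Snap47) with the coat adaptor Snap91, complexins (Cplx), synapsins (Syn), SV2 proteins (Sv2), Rab3 GTPases, Unc13 and Rims. The names matched 74 of 34821 gene names, with 120 probes. Of these, 70 genes were bright enough to be tested, among 23347 genes tested in all, and each was represented by its brightest probe. The other 4 were too dim: Cplx4 and Stx19 were well above background on 0 of 15 arrays, Syt2 on 2 and Syt8 on 4.

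Transmitter leaves a nerve terminal when a vesicle fuses with the plasma membrane. The vesicle SNARE synaptobrevin (Vamp) zips up with the target SNAREs syntaxin (Stx1) and SNAP-25. Unc13 and Rim proteins prime vesicles at the active zone, complexin holds the partly zipped complex, and synaptotagmins sense the calcium that triggers fusion. Synapsins tether the reserve pool, Rab3 GTPases bring vesicles to the membrane, and SV2 proteins sit in the vesicle membrane. Relatives of the same families serve other traffic, such as endosomes, the Golgi and the granules of immune cells. In the olfactory bulb granule cells, which are axonless inhibitory neurons, release transmitter from their dendrites onto mitral and tufted cells.

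RNA came from whole bulbs of 15 male mice aged 6 to 8 weeks, 1 array per mouse and 5 mice per group, 2 weeks after injection of 500 nL of an adeno-associated virus with a Cre-dependent (flex) cargo. The knockout group consisted of CRHR1-/- mice of strain 129S4/SvJae given the GFP virus, and stands for low CRH signalling. The Cre GFP group carried Cre in CRHR1-positive cells (CRHR1-Cre, C57Bl/6) and received the GFP virus, as a stand-in for wild type. The active CRHR1 group had the same Cre line and strain, with a virus coding for a constitutively active receptor, (CA)CRHR1, and stands for high signalling. All 3 groups thus received a virus. Strain, the Cre line and receptor loss cannot be told apart in a comparison with the knockout group, since Cre is named in the titles of the Cre GFP and active CRHR1 mice alone. Granule cells with CRHR1 were the labelled target of the cargo, while RNA was taken from the whole bulb. In such bulk samples fewer cells of a type and less RNA per cell cannot be told apart. As a check of the labels, Crhr1 was at 3.16 ± 0.12 in the knockout group, 3.63 ± 0.18 in the Cre GFP group and 3.73 ± 0.12 in the active CRHR1 group (mean ± SD, n = 5). It fell in the knockout by 0.47 ± 0.09 (adjusted p = 0.0117 in limma). With active CRHR1 it differed from Cre GFP by 0.09 (adjusted p = 0.527), so the check does not show the receptor cargo. Whether its probe lies inside the deletion is not given in the sources used here.

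All knockout arrays shared slide 1 with Cre GFP arrays 1 to 3, and all active CRHR1 arrays shared slide 2 with Cre GFP arrays 4 and 5. Levels are log2 of the processed signal minus the array's 75th percentile, on which 1 unit is a 2-fold difference, and levels of different probes cannot be set against each other. Changes are differences of group means ± SE from limma, with Benjamini-Hochberg adjusted p-values over the 23347 genes and a threshold of 0.05. The 75th percentile lay between 663 and 1172, and 58.7% to 66.9% of probes were well above background. The number of arrays limits the precision. Bright enough to be tested were 12 of 12 pan-neuronal, 14 of 14 granule cell and 9 of 10 mitral and tufted cell markers. So were 15 of 15 microglia, 9 of 9 oligodendrocyte and 12 of 12 endothelium and mural cell markers. These counts are therefore no check of the tissue.

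In the bulbs with active CRHR1, vesicle and SNARE genes were lower than in the Cre GFP bulbs. Of the 70 members 15 fell and 1 rose. This is 21.4% lower, where 6.09% of all genes tested fell, and 1.43% higher, where 4.57% of all genes rose. The median change of the members was -0.17, beside -0.07 over all genes, and 54 of 70 members (77.1%) had a lower mean, beside 64.3% of all genes. Arrays of both groups did not overlap for 14 members (20%), against 11.4% of all genes. The knockout bulbs showed fewer changes against the same Cre GFP arrays, 2 higher and 4 lower, or 8.57% of members against 4.11% of all genes. Lower means in the knockout were found for 48 of 70 members (68.6%), beside 48.3% of all genes. Both comparisons share the Cre GFP arrays, so their values are given side by side and not related to each other.

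**Figure D1:**
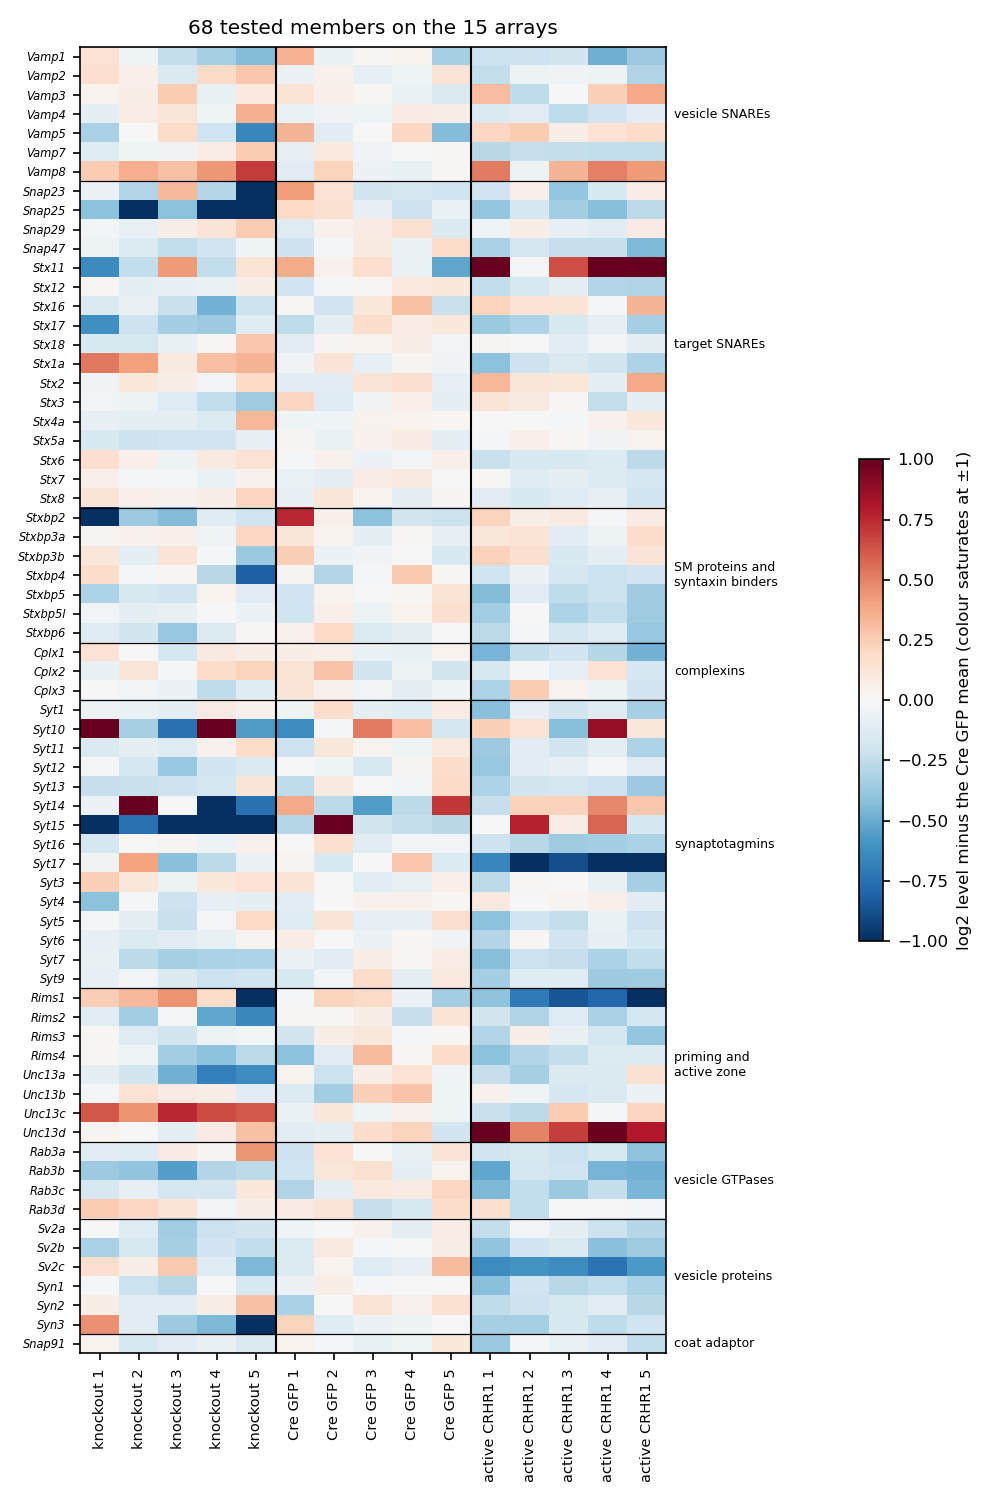
Log2 level of 68 of the 70 tested members (rows, grouped by role) on each of the 15 arrays (columns), minus the gene's mean over the 5 Cre GFP arrays; colour runs from blue (lower) to red (higher) and saturates at 1 unit. The active CRHR1 columns are mostly pale blue, with Syt17, Sv2c and Rims1 darker and Stx11 and Unc13d red, while in the knockout columns Snap25 and Syt15 are blue and Unc13c and Stx1a red.

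Of the synaptotagmins, which include calcium sensors and relatives that do not bind calcium, 4 of 15 fell with active CRHR1 and 11 of 15 had lower means. Syt17, a synaptotagmin relative known from Golgi and endosomal traffic rather than as a trigger of fusion, gave the smallest p among the members that fell. Its level was -1.37, -1.56, -1.41, -1.13 and -1.54 on the Cre GFP arrays and -2.05, -2.50, -2.29, -2.75 and -2.42 on the active CRHR1 arrays. Every active CRHR1 array was thus lower than every Cre GFP array, and also lower than the knockout arrays, at -1.43, -1.0, -1.82, -1.66 and -1.46. Syt17 fell by 1.00 ± 0.15 (adjusted p = 0.000984), and its knockout difference was -0.07 (adjusted p = 0.822). The 1 probe behind it spans mm9 chr7:125525530-125551561, longer than the 60 bases of the probe. Its first 30 bases are shown because this is the synaptotagmin with the largest change between active CRHR1 and Cre GFP, in lower case since no part is marked:
Syt17 probe: aaacgccagcctagtattcacagtgttcgg

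Syt16, a relative that lacks calcium-binding residues, stood at 0.35, 0.50, 0.22, 0.32 and 0.31 on the Cre GFP arrays. With active CRHR1 it was at 0.13, 0.06, -0.01, 0.00071 and 0.03, without overlap, and fell by 0.30 ± 0.06 (adjusted p = 0.00826); the knockout arrays, at 0.17, 0.35, 0.37, 0.29 and 0.38, overlapped with the Cre GFP range. Syt7, a slow calcium sensor of asynchronous release, fell by 0.29 ± 0.07 (adjusted p = 0.0138) with active CRHR1. A second Syt7 probe gave -0.20 ± 0.10 (adjusted p over probes = 0.226), short of the threshold. Syt9, a fast sensor, fell by 0.26 ± 0.08 (adjusted p = 0.0467). The main fast sensor Syt1, on the other hand, had a difference of -0.23 (adjusted p = 0.0781) and did not pass, and the means of the other 10 synaptotagmins that did not pass differed from Cre GFP by -0.25 (Syt13) to 0.25 (Syt15).

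All 6 vesicle proteins tested had lower means with active CRHR1, and 3 of them fell. Sv2c, the SV2 form of few brain regions, was the only member to keep its call against Cre GFP under every alternative tried. Its levels were -2.65, -2.47, -2.64, -2.59 and -2.20 in Cre GFP bulbs, -2.35, -2.45, -2.25, -2.64 and -2.96 in the knockout and -3.14, -3.11, -3.14, -3.25 and -3.09 with active CRHR1. The active CRHR1 arrays lay closely together and below all 10 others. Sv2c fell by 0.63 ± 0.12 (adjusted p = 0.00516); a second probe gave -0.52 ± 0.12 (adjusted p over probes = 0.014) and another -0.49 ± 0.15 (adjusted p over probes = 0.0622). Sv2b, a form of the same family, read 1.75, 1.97, 1.87, 1.87 and 1.95 on the Cre GFP arrays and 1.49, 1.69, 1.73, 1.46 and 1.53 with active CRHR1, without overlap, and fell by 0.30 ± 0.07 (adjusted p = 0.0142). Its knockout level of 1.63 ± 0.08 (SD, n = 5) was nearly as low, with a difference of -0.25 (adjusted p = 0.0558). Sv2a, the form found at most synapses, differed by -0.17 (adjusted p = 0.127).

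Syn1, which ties vesicles to the reserve pool, was at 6.46, 6.60, 6.51, 6.53 and 6.53 on the Cre GFP arrays and at 6.11, 6.34, 6.25, 6.28 and 6.21 with active CRHR1. The groups did not overlap and Syn1 fell by 0.29 ± 0.06 (adjusted p = 0.0127). The knockout arrays lay between 6.25 and 6.52. For Syn2 the brightest probe gave -0.20 (adjusted p = 0.177), while a second probe fell by 0.27 ± 0.08 (adjusted p over probes = 0.0447), at 3.12, 3.04, 2.91, 3.05 and 3.05 against 2.70, 2.94, 2.81, 2.73 and 2.66. Only 1 active CRHR1 array of the second probe, array 2, reached into the Cre GFP range. The probes of Syn2 therefore differ in call and not in sign. Syn3 differed by -0.26 (adjusted p = 0.4).

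Vesicle GTPases followed. Rab3b, 1 of 4 Rab3 forms, read 5.92, 6.23, 6.26, 6.02 and 6.15 in Cre GFP bulbs, 5.60, 5.95, 5.91, 5.65 and 5.63 with active CRHR1 and 5.75, 5.72, 5.57, 5.82 and 5.85 in the knockout. It was lower in both other groups, by 0.37 ± 0.09 (adjusted p = 0.0222) with active CRHR1 and by 0.37 ± 0.09 (adjusted p = 0.0363) in the knockout, where the arrays did not overlap with Cre GFP. Rab3c fell by 0.35 ± 0.09 (adjusted p = 0.0299) with active CRHR1. Its 2 further probes did not pass, at -0.31 ± 0.12 (adjusted p over probes = 0.12) and -0.32 ± 0.12 (adjusted p over probes = 0.114). In the knockout these further probes gave -0.33 (adjusted p over probes = 0.145) and -0.30 (adjusted p over probes = 0.195). The brightest Rab3c probe gave -0.10 there (adjusted p = 0.596). Rab3a, the main form at synapses, differed by -0.23 (adjusted p = 0.169) and did not pass.

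Of the complexins, Cplx1 fell by 0.33 ± 0.07 (adjusted p = 0.0131). Its levels of 6.54, 6.76, 6.81, 6.72 and 6.53 with active CRHR1 lay below the 7.06, 7.05, 6.94, 6.93 and 7.03 of the Cre GFP arrays without overlap. For Cplx2, the complexin of many forebrain synapses, the result depended on the probe. The brightest of 5 probes differed by -0.06 ± 0.10 (adjusted p over probes = 0.748). It consists of A and G alone, holds a run of 42 bases of a 3-base repeat, and is placed by the array design on chromosome 6, at chr6:140877310-140877369 of mm9, while RefSeq has the gene on chromosome 13. The only probe with all 4 bases, at chr13:54485200-54485259, gave -0.40 ± 0.10 (adjusted p over probes = 0.0245). On that probe the levels were 5.49, 5.70, 5.16, 5.30 and 5.44 in Cre GFP and 4.94, 5.06, 5.00, 5.19 and 4.90 with active CRHR1, where 1 array, active CRHR1 array 4, lay above the lowest Cre GFP array. The first 30 bases of both are shown to set the repeat, in capitals, against the other probe:
Cplx2 brightest probe: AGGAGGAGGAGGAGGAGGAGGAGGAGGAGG
Cplx2 probe with all 4 bases: tccccactttgtatgatgcaaatgctaaga
The remaining 3 probes, also of A and G alone, differed by -0.11 to -0.08 and did not pass. What else these probes bind was not tested.

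**Figure D2:**
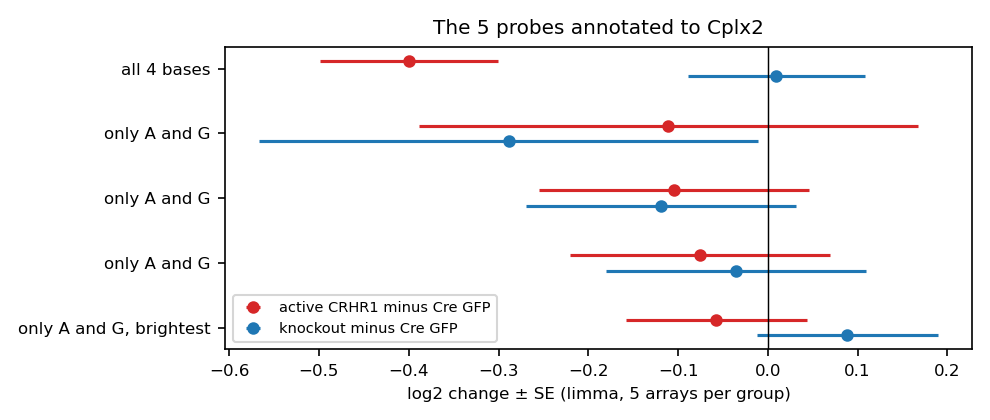
Log2 change ± SE (limma, 5 arrays per group) of each of the 5 probes annotated to Cplx2, with active CRHR1 (red) and in the knockout (blue) against Cre GFP. Only the probe with all 4 bases lies clear of 0 with active CRHR1, at -0.40, while the brightest probe lies at -0.06.

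Of the SNAREs themselves, 2 of 18 target SNAREs (11.1%) and 1 of 7 vesicle SNAREs (14.3%) fell against Cre GFP. Of their binding proteins (Stxbp) 2 of 8 fell (25%), where 6.09% of all genes fell. These families are small, so 1 gene moves such a share by much. Among 18 target SNAREs Snap47, a SNAP relative on intracellular membranes, fell by 0.28 ± 0.08 (adjusted p = 0.0349). A second Snap47 probe gave -0.49 ± 0.14 (adjusted p over probes = 0.0392). Stx6, a syntaxin of the trans-Golgi and endosomes, fell by 0.19 ± 0.05 (adjusted p = 0.0383). A second Stx6 probe gave -0.18 ± 0.07 (adjusted p over probes = 0.151) and did not pass. Vamp7, the vesicle SNARE of late endosomes, was the 1 of 7 vesicle SNAREs that fell, by 0.25 ± 0.07 (adjusted p = 0.0297). Stxbp5 (tomosyn), a brake on SNARE assembly, fell by 0.27 ± 0.08 (adjusted p = 0.0444). The core SNAREs given here did not pass: Snap25 differed by -0.32 (adjusted p = 0.274), Stx1a by -0.25 (adjusted p = 0.058), Vamp1 by -0.29 (adjusted p = 0.145) and Vamp2 by -0.13 (adjusted p = 0.303). All 4 had lower means.

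Of 8 priming and active zone genes 1 passed, while the other 7 had lower means and did not pass. Unc13d (Munc13-4), which primes the granules of cytotoxic and other blood cells, was the 1 member that rose, by 0.83 ± 0.12 (adjusted p = 0.000941). Its levels were -3.59, -3.58, -3.31, -3.27 and -3.68 on the Cre GFP arrays, -3.46, -3.48, -3.58, -3.41 and -3.19 on the knockout arrays and -2.31, -2.99, -2.80, -2.51 and -2.69 on the active CRHR1 arrays, which lay above all others. A second probe rose too, with 0.44 ± 0.09 (adjusted p over probes = 0.00763). In the fit of the authors' deposited values Unc13d was represented by this second probe, and its change was 0.34 (adjusted p = 0.086 in limma). That value is therefore no second reading of the brightest probe. The first 30 bases of both probes, at chr11:115923410-115923469 and chr11:115936930-115936989 of mm9, show that they are separate sequences, with no part marked:
Unc13d brightest probe: cacctgccacctagaaatgttctcagagaa
Unc13d second probe: tttcctgctcccatctctctccagcacctc
Stx11, the syntaxin that works with Unc13d in cytotoxic granule release, read -4.27, -4.59, -4.48, -4.71 and -5.16 in Cre GFP and -2.76, -4.66, -4.0, -3.55 and -3.54 with active CRHR1. Of its 5 active CRHR1 arrays 4 lay above the Cre GFP range and array 2 within it. Its difference of 0.94 ± 0.30 (adjusted p = 0.0566) missed the threshold. The neuronal priming genes did not pass, with -0.14 (adjusted p = 0.463) for Unc13a and -0.77 (adjusted p = 0.112) for Rims1. Rims1 was at -0.34, -0.11, -0.14, -0.39 and -0.68 in Cre GFP and -0.73, -1.04, -1.19, -1.12 and -1.41 with active CRHR1, without overlap, and its knockout arrays at -0.09, -0.01, 0.12, -0.15 and -1.86 included 1 far below the rest. Without knockout array 5 the difference of Rims1 with active CRHR1 passed at an adjusted p of 0.00251. A second Rims1 probe gave a smaller difference over all arrays, -0.29 ± 0.13 (adjusted p over probes = 0.161), and did not pass.

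Immune cell markers moved with these results. With active CRHR1 12 of 15 microglia markers rose, by a median of 0.73 over the list, and the mean level of the list lay between 2.74 and 3.28 against 2.00 to 2.48 in Cre GFP. Of 9 T cell markers tested 7 rose (median 1.07), among them Gzmb by 3.42 and Cd3d by 2.80, while Cd8a and Cd8b1 were too dim to be tested. The T cell list stood at -0.91, -2.82, -1.66, -1.19 and -1.53 on active CRHR1 arrays 1 to 5. Array 2 was the lowest of these, as it was for Stx11 and for the brightest probe of Unc13d. On the second Unc13d probe array 4 was the lowest, at -3.05, with array 2 at -3.03. On the neuronal side 5 of 12 pan-neuronal markers fell (median -0.26), and the list lay between 4.15 and 4.31 against 4.36 to 4.49 in Cre GFP, without overlap. Of 14 granule cell markers 5 fell (median -0.25), of 9 mitral and tufted cell markers 1 and of 9 oligodendrocyte markers 2. Their part in the changes of the vesicle and SNARE genes was not tested.

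**Figure D3:**
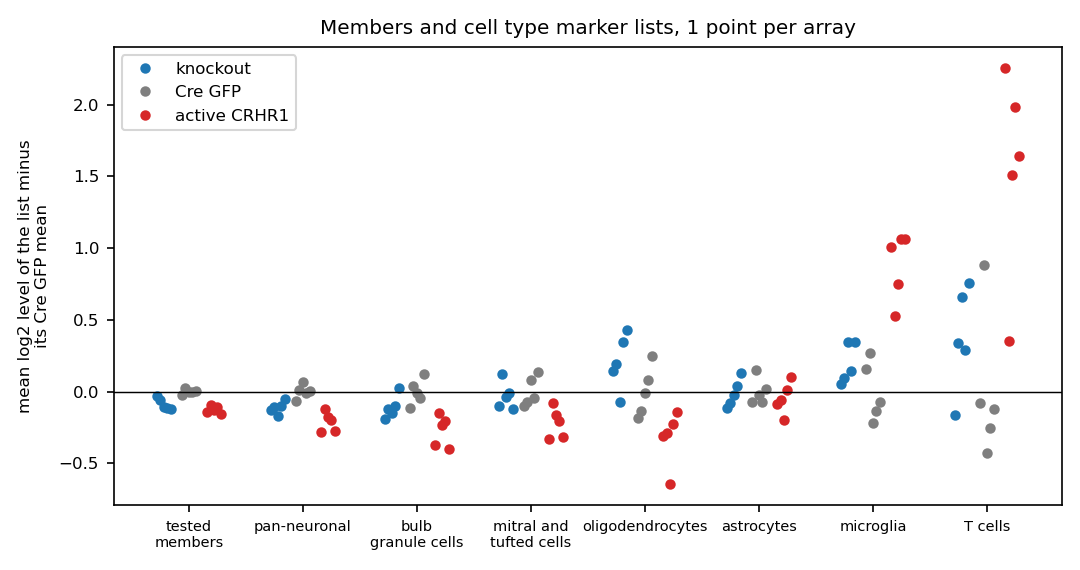
Mean log2 level of the 70 tested members and of 7 cell type marker lists on each array (1 point per array), minus the list's mean over the Cre GFP arrays, for knockout (blue), Cre GFP (grey) and active CRHR1 (red). The 5 active CRHR1 points of the members lie between -0.16 and -0.10, those of the pan-neuronal list between -0.28 and -0.12, and those of microglia and T cells above 0.

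Of the 16 members that passed with active CRHR1, 8 kept their call with each of the 15 arrays left out in turn: Syt17, Sv2c, Syt16, Sv2b, Syt7, Syn1, Cplx1 and Unc13d. The other 8 lost it in 6 to 12 of the 15 omissions (adjusted p up to 0.118), and the count of members that fell ranged from 7 to 21. It was 7 or 8 without any 1 of Cre GFP arrays 2 to 5 or active CRHR1 arrays 1, 4 and 5. How many of all genes passed in each omission is not given here, so a shift over all genes cannot be told apart. With the slide as a block, which here compares arrays of slide 2 alone, Syt17, Sv2c, Rab3c, Syt7 and Unc13d passed of these 16, with changes of -1.07, -0.75, -0.50, -0.33 and 0.81.

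**Figure D4:**
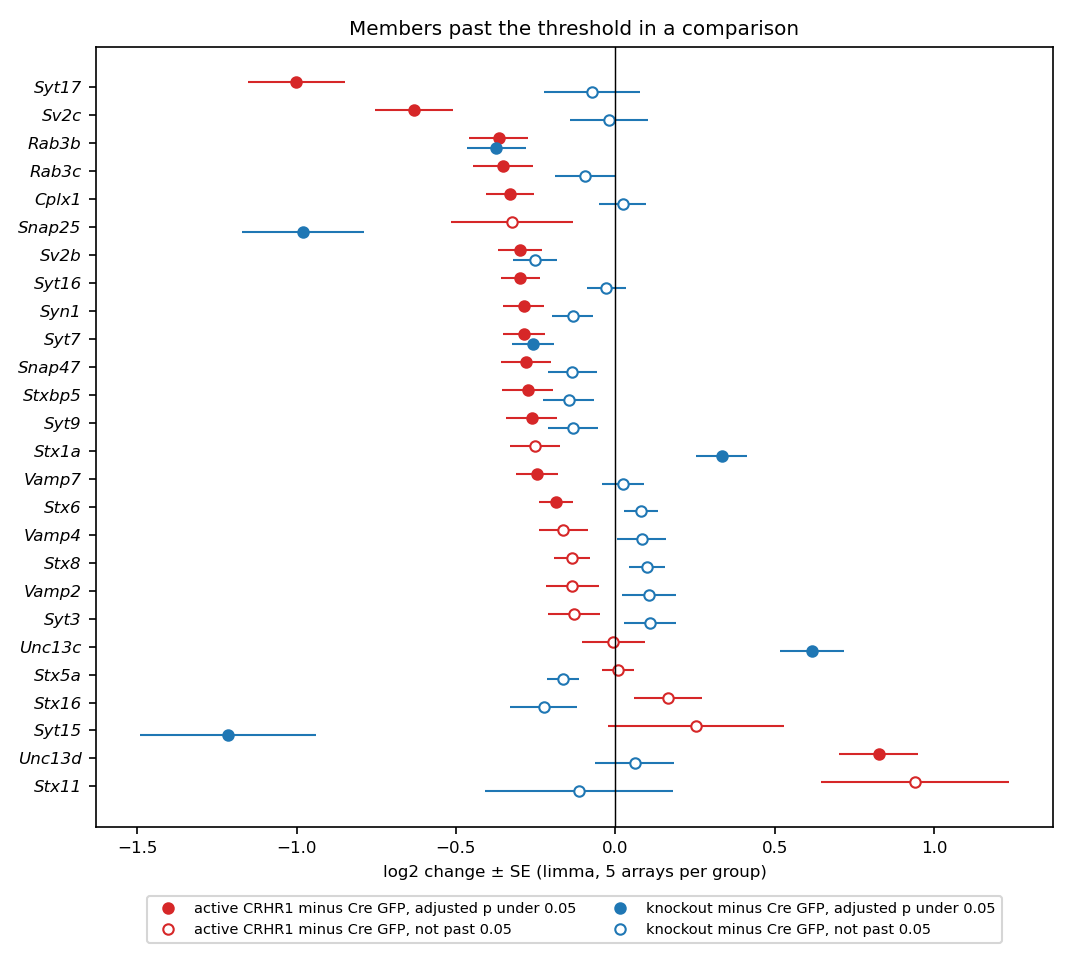
Log2 change ± SE of 26 of the 27 members that passed in any of the 3 comparisons, for active CRHR1 (red) and knockout (blue) against the same Cre GFP arrays; filled symbols have an adjusted p under 0.05. Red symbols lie left of 0 for most genes, the filled ones from Syt17 at -1.0 to Stx6 at -0.19 with Unc13d to the right, while the filled blue symbols lie on both sides, from Syt15 at -1.22 to Unc13c at 0.62.

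In the knockout bulbs single members stood out against a median of -0.07 for the 70 members and 0.01 for all genes. Unc13c, the Munc13 form best known from the cerebellum, rose and Stx1a rose, while Snap25, Syt15, Rab3b and Syt7 fell. This is 2.86% higher, where 2.43% of all genes rose, and 5.71% lower, where 1.67% of all genes fell. The arrays did not overlap for 6 members (8.57%), against 5.96% of all genes.

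Unc13c read -0.75, -0.92, -0.61, -0.72 and -0.76 on the knockout arrays, -1.44, -1.26, -1.41, -1.33 and -1.41 on the Cre GFP arrays and -1.59, -1.63, -1.12, -1.38 and -1.15 with active CRHR1. The knockout arrays were above all others, and the change was 0.62 ± 0.10 (adjusted p = 0.00463). The target SNARE Stx1a stood at 2.77, 2.66, 2.34, 2.55 and 2.59 in the knockout, 2.22, 2.38, 2.17, 2.27 and 2.21 in Cre GFP and 1.84, 2.04, 2.10, 2.06 and 1.94 with active CRHR1. It rose in the knockout by 0.33 ± 0.08 (adjusted p = 0.0319), where 1 knockout array, array 3, lay below the highest Cre GFP array. Both genes were tested with 1 probe each, Unc13c at chr9:73781310-73781369 and Stx1a at chr5:135526477-135526536.

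Snap25, the target SNARE that pairs with Stx1a, read 4.97, 3.96, 4.97, 4.13 and 3.99 in the knockout, 5.58, 5.53, 5.30, 5.17 and 5.31 in Cre GFP and 4.99, 5.20, 5.03, 4.95 and 5.11 with active CRHR1. Knockout arrays 1 and 3 lay above the other 3 and within the active CRHR1 range, and all 5 lay below Cre GFP. Snap25 fell by 0.98 ± 0.19 (adjusted p = 0.0127). It rests on 1 probe, at chr2:136607709-136607768 of mm9, which opens with a run of 20 bases of a 2-base repeat, given in capitals in its first 30 bases:
Snap25 probe: CACACACACACACACACACAaagtggattt
Of the 70 probes used for members 3 (4.29%), those of Snap25, Snap23 and Cplx2, held such a run of at least 16 bases, against 0.827% of the probes used for all genes. The part of the repeat in the value was not tested. Without knockout arrays 2 and 5, left out after their values were seen, the difference was -0.69 (adjusted p = 0.0689).

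Syt15, a synaptotagmin relative that does not sense calcium, was dim, at -5.23, -4.94, -5.32, -6.12 and -5.45 in the knockout and -4.48, -3.21, -4.38, -4.44 and -4.48 in Cre GFP. It was well above background on 4 of 5 knockout arrays, and all 5 lay below Cre GFP. Syt15 fell by 1.22 ± 0.28 (adjusted p = 0.0255); without knockout array 4 its adjusted p was 0.0627. Rab3b and Syt7 were lower in the knockout as well as with active CRHR1. Syt7 read 1.06, 0.88, 0.80, 0.82 and 0.82 in the knockout, 1.08, 1.03, 1.20, 1.15 and 1.21 in Cre GFP and 0.71, 0.92, 0.91, 0.82 and 0.89 with active CRHR1, and fell by 0.26 ± 0.07 (adjusted p = 0.0406) in the knockout. Its second probe gave -0.03 ± 0.10 (adjusted p over probes = 0.916) there.

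Among the core genes that did not pass in the knockout, differences were -0.41 (adjusted p = 0.0749) for Unc13a, -0.17 (adjusted p = 0.176) for Sv2a, -0.13 (adjusted p = 0.255) for Syn1, -0.18 (adjusted p = 0.449) for Vamp1 and 0.11 (adjusted p = 0.505) for Vamp2. For Syt1, Syn2, Rab3a, Rims1, Cplx1 and Cplx2 they lay between -0.07 (Rims1) and 0.09 (Cplx2). Of the 6 calls, those of Unc13c and Snap25 held with every array left out, Syt15 lost its call in 1 omission, and Stx1a, Rab3b and Syt7 in 8 to 11 (adjusted p up to 0.102). With the slide as a block, which compares arrays of slide 1 alone, Unc13c (0.62), Snap25 (-1.07) and Syt15 (-1.39) passed. Beside these, 4 of 12 markers of endothelium and mural cells rose in the knockout, and the mean level of that list lay between -0.13 and 0.10 against -0.56 to -0.30 in Cre GFP. Pan-neuronal markers had lower means for 9 and higher for 3 of 12, and 1 fell. For granule cell markers means were lower for 11 and higher for 3 of 14, and 1 fell. Oligodendrocyte markers had higher means for 8 of 9, and 1 rose. Of 10 astrocyte markers 2 rose and 1 fell, and of 15 microglia markers 14 had higher means and 0 passed. Their part was not tested.

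**Figure D5:**
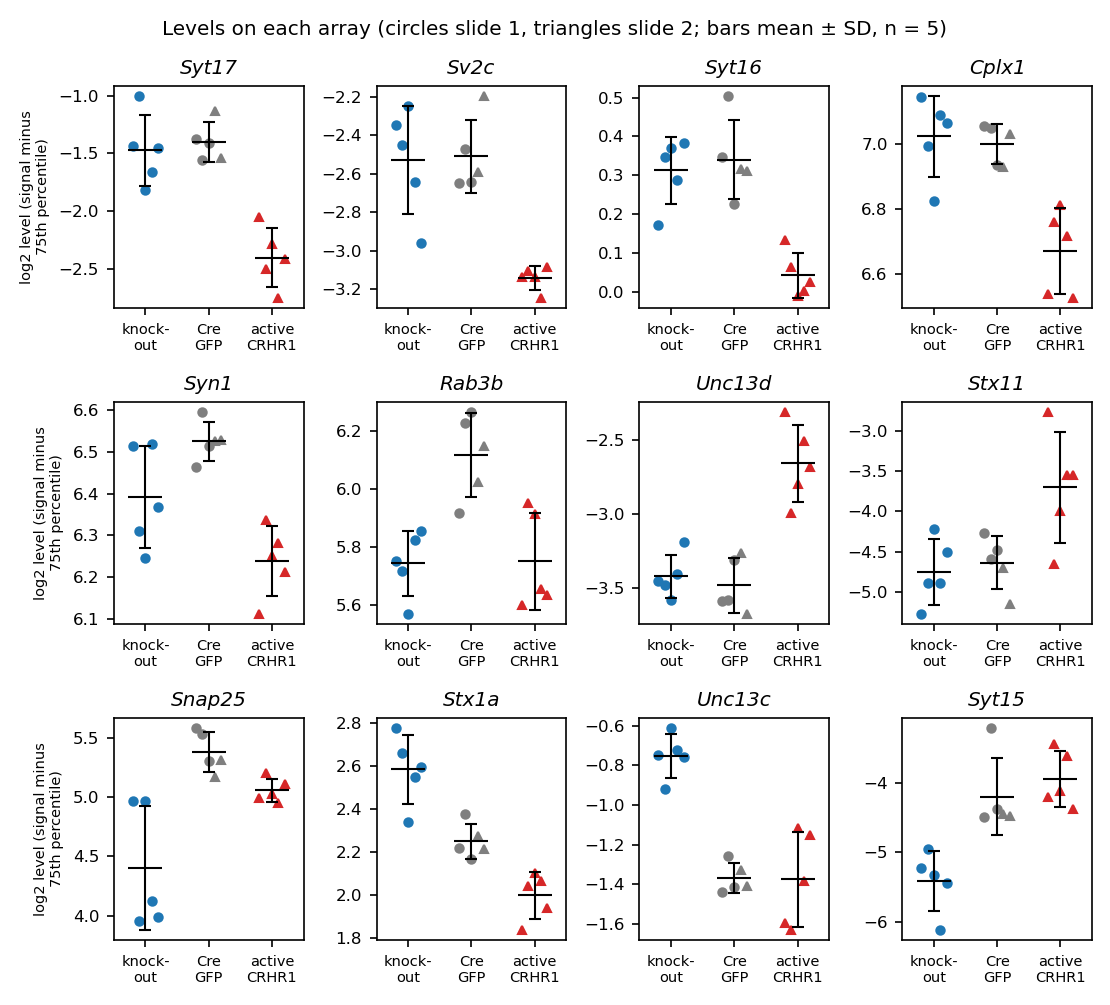
Log2 level (signal minus the array's 75th percentile) of 12 members on each array, by group, with circles for slide 1, triangles for slide 2 and bars for mean ± SD (n = 5). Syt17, Sv2c, Syt16, Cplx1 and Syn1 are lower and Unc13d higher with active CRHR1 without overlap with Cre GFP, while Snap25 and Syt15 are lower and Unc13c higher in the knockout.

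High against low signalling gave the most calls, but over all genes too. Between active CRHR1 and knockout 18 of 70 members passed (25.7%), against 28.1% of all genes. Lower with active CRHR1 were 12 members (17.1%, all genes 18.4%) and higher 6 (8.57%, all genes 9.68%). The arrays did not overlap for 17 members (24.3%, all genes 19.4%). The share that passed was thus near the background. These groups lay on different slides, and differ in strain and Cre as well.

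Stx1a had the smallest p of the members here, was lower with active CRHR1 by a change of -0.59 ± 0.08 (adjusted p = 0.000423), and kept its call in every alternative tried. Its Cre GFP mean of 2.25 ± 0.08 (SD, n = 5) lay between those of the knockout, 2.58 ± 0.16, and of active CRHR1, 2.00 ± 0.11. Syt17, Unc13c, Sv2c, Cplx1 and Syt16 fell by 0.93, 0.62, 0.61, 0.35 and 0.27 relative to the knockout. Also lower were several SNAREs, with -0.27 (adjusted p = 0.00359) for Stx6, -0.24 (adjusted p = 0.00944) for Stx8, -0.27 (adjusted p = 0.0105) for Vamp7 and -0.25 (adjusted p = 0.0303) for Vamp4. A second Vamp4 probe showed almost no difference, at -0.01 ± 0.08 (adjusted p over probes = 0.905). The second Stx6 probe, at -0.15 ± 0.07 (adjusted p over probes = 0.155), did not pass either. Stx8, on late endosomes, read 1.37, 1.30, 1.28, 1.30 and 1.45 in the knockout and 1.12, 1.09, 1.11, 1.16 and 1.04 with active CRHR1, without overlap. The synaptic vesicle SNARE Vamp2 passed at -0.24 (adjusted p = 0.0473), and Syt3, a plasma membrane synaptotagmin, at -0.24 (adjusted p = 0.0422). Vamp2 lost its call in 12 of 15 array omissions and Syt3 in 9. With quantile normalization Vamp2 differed by -0.03 (adjusted p = 0.728). A second Syt3 probe gave -0.20 ± 0.10 (adjusted p over probes = 0.142).

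The 6 members higher than in the knockout were Syt15 with 1.47 (adjusted p = 0.00267), Stx11 with 1.05 (adjusted p = 0.0199), Unc13d with 0.77 (adjusted p = 0.00115), Snap25 with 0.65 (adjusted p = 0.0239), the trans-Golgi syntaxin Stx16 with 0.39 (adjusted p = 0.0171) and the Golgi syntaxin Stx5a with 0.17 (adjusted p = 0.023). Stx11 and Unc13d stood beside 10 of 15 microglia and 4 of 9 T cell markers that were higher in the same comparison. Their part was not tested. Of the 18 calls 13 held with every array left out, and 2 with the slide as a block, Stx1a (-0.58) and Syt15 (1.90).

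Genes that work with the SNAREs outside the name rule gave the following counts with active CRHR1 against Cre GFP. Of 10 SNARE chaperones and disassembly factors 3 fell (median -0.19). Among them were Nsf, the ATPase that takes spent SNARE complexes apart, at -0.45 (adjusted p = 0.000486), and its adaptor Napb at -0.32 (adjusted p = 0.0218). Of 13 active zone scaffold genes 4 fell (median -0.20), with Ppfia2 (liprin) at -0.24 (adjusted p = 0.0234), Apba1 (Mint1) at -0.32 (adjusted p = 0.0266) and the ELKS protein Erc2 at -0.26 (adjusted p = 0.0278) giving the smallest p. Among 13 further vesicle membrane proteins Synpr (synaptoporin) and Syngr3 (a synaptogyrin) fell, at -0.28 (adjusted p = 0.0473) and -0.29 (adjusted p = 0.0475), and Syngr2, the synaptogyrin of non-neuronal cells, rose, at 0.39 (adjusted p = 0.0275). Of 20 further priming and calcium sensor genes 1 fell, Rph3a (rabphilin), a Rab3 effector, at -0.74 (adjusted p = 0.00268). Of 26 endocytosis genes 3 fell, the endophilin Sh3gl3 at -0.28 (adjusted p = 0.0166), Amph (amphiphysin) at -0.26 (adjusted p = 0.0271) and the adaptor subunit Ap2a2 at -0.18 (adjusted p = 0.0494). Of 7 vesicle transmitter transporters 0 passed in limma, with 1 higher and 2 lower at an unadjusted p under 0.05. The share of all genes that fell was 6.09%, and these lists are described by their counts only.

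In the knockout 3 of the 89 genes tested from these lists passed against Cre GFP (3.37%), against 4.11% of all genes, so the share was near the background. They were Rph3al at 0.58 (adjusted p = 0.0242), Synj2, an endocytic phosphatase, at 0.58 (adjusted p = 0.0416) and Pacsin2, a membrane-bending protein, at -0.24 (adjusted p = 0.0248). Against the knockout, Rph3a was lower with active CRHR1 at -1.07 (adjusted p = 0.000215), Nsf at -0.47 (adjusted p = 0.000294) and Sh3gl3 at -0.45 (adjusted p = 0.000621).

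Promoters were read because many members were lower together with active CRHR1. CRHR1 couples to the G protein that raises cAMP, and the cAMP-responsive factor CREB binds the palindrome TGACGTCA. RefSeq's table on GRCm38.p6 held 53 of the 70 tested members, with 66 windows of the 250 bases before a gene start. On either strand, TGACGTCA was found in 2 of these windows (3.03%, Syn1 and Stxbp3), against 1.55% of 32851 windows of all genes. Its 5-base part TGACG, which every full site also contains, was in 21.2% of member windows and in 17.8% of all. Of 14 windows of members that fell, those of Rab3b, Stx6 and Syn1 held it (21.4%). The GC-box core GGGCGG was in 63.6% of member windows and 32.7% of all. The Syn1 window (chrX:20920919-20921168, minus strand) is printed because it holds the full palindrome and Syn1 fell, and the Rab3b window (chr4:108878820-108879069, plus strand) for comparison with the 5-base part alone. Capitals mark TGACGTCA in Syn1 and TGACG in Rab3b:
Syn1 promoter: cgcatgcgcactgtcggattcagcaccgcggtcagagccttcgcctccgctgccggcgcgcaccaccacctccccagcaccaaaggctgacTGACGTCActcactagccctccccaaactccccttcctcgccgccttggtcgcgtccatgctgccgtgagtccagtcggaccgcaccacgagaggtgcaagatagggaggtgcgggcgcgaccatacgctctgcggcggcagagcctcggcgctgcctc
Rab3b promoter: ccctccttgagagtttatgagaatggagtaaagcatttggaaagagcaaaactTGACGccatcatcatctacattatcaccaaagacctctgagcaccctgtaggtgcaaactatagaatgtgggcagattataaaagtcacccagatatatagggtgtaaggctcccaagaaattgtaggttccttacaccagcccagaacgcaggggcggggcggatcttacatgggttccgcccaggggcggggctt
TGACGTCA begins at base -159 relative to the Syn1 start, and TGACG at base -197 relative to that of Rab3b. These matches are letters in a window, and no binding was measured.

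In all, 27 of the 70 members passed in at least 1 comparison, 43 in none, and Rab3b and Syt7 passed in both comparisons with Cre GFP. Of the 43, the largest differences from Cre GFP with active CRHR1 were -0.77 (adjusted p = 0.112) for Rims1 and 0.35 (adjusted p = 0.0658) for Vamp8, an endosomal SNARE of non-neuronal cells. Stxbp3b is the design's name for what RefSeq lists as a pseudogene of Stxbp3, so its value is uncertain. For Snap23, the SNAP form of non-neuronal cells, the brightest of 3 probes held a repeat run of 22 bases and differed in sign from both others, at -0.12 ± 0.26 (adjusted p over probes = 0.796) against 0.15 ± 0.09 (adjusted p over probes = 0.324) and 0.24 ± 0.14 (adjusted p over probes = 0.264).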

How the data were processed

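Bulb RNA of 15 mice in 3 groups of 5 was labelled (100 ng, Cy3) for 1-colour Agilent arrays, per the labels' protocols. Arrays of a group come from different mice, per the labels. The deposited scanner files give spot intensity and flags, written by Agilent Feature Extraction 10.7.3.1 per the file headers. The authors' series values are a ratio, the processed intensity over the array's median of non-control spots, which was read off by comparing them with the scanner signals; they served as an alternative, and the medians of their columns were 0.899 to 0.935. Coordinates of probes refer to mm9 per the file headers; no gene annotation of that build was used here, so exon or UTR positions are not given.

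Control spots and outlier flags were left out, and no spot was saturated (0 in all). Levels, as log2 of processed signal less each array's 75th percentile, were averaged over spots of a probe. Kept were 33968 of 55681 probes, those well above background on 4 or more arrays in 1 group or more, and a gene name took its brightest kept probe. All 3 comparisons were fitted over the 15 arrays with limma 3.58.1 (lmFit, eBayes) in R 4.3.3 with the package data.table (version 1.17.8). Values for further probes come from the same fit over the 33968 probes. The steps were tested on simulated data with 200 changed genes. By comparison, 16% to 20% of changes of 0.3 were recovered and 42% to 54% of changes of 0.5. Recovery in the real data may differ. A member with a change of such size that did not pass is thus not shown to be unchanged. Figures were drawn with matplotlib 3.10.9 and tables read with pandas 2.3.3 in Python 3.11.15.

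Members and gene lists were chosen with earlier results of these data known. Named are every member that passed in a comparison, 17 core release genes whatever their values, and the genes of smallest p, at most 3, of every further list; results of some of these genes are not reported here, though counts include them. Alternatives were quantile normalization, median centring, normexp background correction (offset 50), the authors' values, other filters and probe rules, fits of the groups compared only, an intensity trend, array weights, slide and replicate number as blocks, within-slide fits, and each array left out. Added after the data were seen were fits without knockout arrays 2 and 5 and without probes on another chromosome than RefSeq's gene.

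Correlations of same-numbered arrays' deviations from their group means ran from -0.23 to 0.35. Knockout and Cre GFP arrays 5 correlated at 0.35, against at most 0.18 with another number. For active CRHR1 and knockout arrays 2 these values were 0.20 and 0.07. In all other pairs an array of another number correlated more. The labels name no pairs, and these values cannot settle whether replicate numbers pair the mice.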

Additional observations from a re-analysis of the deposited data

Results flagged for a closer look

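Within groups of 5 arrays, 108 in all for the 36 named members, 4 arrays stood apart by Dixon's criterion. Chance flags about 1 in 20 groups. No array was behind more than 1 of them. Rims1 on knockout array 5 had a level of -1.86, with the next lowest knockout array at -0.15. Without that array the difference of Rims1 between active CRHR1 and Cre GFP stayed at -0.77 and its adjusted p went from 0.112 to 0.00251. Relative to the knockout the difference went from -0.70 to -1.07 (adjusted p = 0.000541). With all arrays, a second Rims1 probe differed from Cre GFP by -0.29 ± 0.13 (adjusted p over probes = 0.161) with active CRHR1. Syt15 on Cre GFP array 2 was at -3.21, above the next at -4.38, and without it the knockout difference was -0.97 (adjusted p = 0.0342) in place of -1.22. Syt7 on knockout array 1 was at 1.06, above the next at 0.88, and without it the knockout difference was -0.30 (adjusted p = 0.0181) in place of -0.26. Rab3a on active CRHR1 array 5 was at 6.68, below the next at 6.86, and without it the difference from Cre GFP was -0.18 (adjusted p = 0.329) in place of -0.23.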

How the results depend on the processing

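No named member with a call reversed its direction under any alternative, while many calls ended. The share of all genes that passed under each alternative is not given beside the counts below. These counts therefore cannot tell a shift of the members from a shift over all genes. With each array left out in turn, the count of members higher in the knockout than in Cre GFP ranged from 1 to 3 and lower from 1 to 4; with active CRHR1 against Cre GFP from 1 to 3 and from 7 to 21; and with active CRHR1 against knockout from 4 to 7 and from 9 to 16. For knockout against Cre GFP, higher and lower counts were 0 and 2 with median centring, 1 and 2 with the authors' values, without the filter on dim probes and with the slide as a fixed block, 1 and 0 within slide 1, with the groups compared only and without knockout arrays 2 and 5, and 8 were lower with array weights. For active CRHR1 against Cre GFP, 2 were higher and 8 lower with quantile normalization, 5 lower with median centring and with the slide as a fixed block, 0 higher and 5 lower with the authors' values, 8 lower without the filter, 0 higher and 1 lower within slide 2, 3 higher with normexp, an intensity trend, array weights and the slide as a random block, and 27 lower with array weights. For active CRHR1 against knockout, 3 were higher and 6 lower with median centring, 6 lower with the authors' values, 1 and 1 with the slide as a fixed block, and 10 and 22 as a random block. The replicate number was also used as a block, though the labels name no such pairs. There 1 was higher and 2 lower in the knockout, 1 and 11 with active CRHR1 against Cre GFP, and 5 and 11 against the knockout. Median centring moved the median of all genes with active CRHR1 against Cre GFP from -0.07 to -0.17 and that of the members from -0.17 to -0.27. With quantile normalization these were -0.05 and -0.10. Among the 16 calls of that comparison 6 remained with median centring, 5 with the authors' values and 5 with the slide block. Cplx1 and Vamp7 had no value in the fit of the authors' values, so their calls could not remain there. Within slide 2 Cre GFP has 2 arrays, and within slide 1 it has 3, which limits those fits. The cause of the other differences was not tested. Syt15 and Syt14 had arrays not well above background. In the authors' values Unc13d was represented by its second probe, with a change of 0.34 (adjusted p = 0.086 in limma).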
